A study of Mus musculus with 8 samples.

Results

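The Hox, Pax, Lhx, Nkx and T-box genes encode transcription factors that lay out the body plan and the organs of the embryo. Members were chosen by gene symbol among the protein-coding genes of GENCODE on mm10, as Hoxa to Hoxd, Pax, Lhx, Nkx and numbered Tbx genes. Of the numbered Tbx genes, Tbx3 was left out. The choice gave 82 of 21938 genes, namely 39 Hox, 9 Pax, 8 Lhx, 14 Nkx and 12 Tbx genes. A gene was counted as having a peak when a peak touched its body extended by 5 kb on each side. These windows merged into 53 stretches covering 2.11 Mb, since neighbouring Hox genes share theirs.

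The series comprised 8 samples of mouse embryonic stem cells (mESCs) of the EHMT2-dTAG-mcherry line, of BL6/129 hybrid background, all treated for 24 h. In every sample both alleles of Ehmt2 carried a cassette with the degron FKBP12 F36V, HA tags and an mCherry reporter, so DMSO-treated cells were tagged too and no untagged cells were analysed here. HA antibody C29F4 was used on 2 DMSO-treated samples of independent clones, called as 1 merged list, and HA antibody ab9110 on 1 DMSO-treated and 1 dTAG-treated sample, where dTAG removes the tagged EHMT2. The last list came from ab9110 input, sonicated chromatin without pulldown, of dTAG-treated cells. Each condition thus had 1 list, differences between lists have no replicate check, and the intervals below are exact 95% intervals that cover counting error only. Intervals of gene shares treat genes as independent, although neighbouring Hox genes can share a peak. Lists held 11010 peaks (C29F4 DMSO), 40816 (ab9110 DMSO), 16324 (ab9110 dTAG) and 2050 (input dTAG). Mean fragment coverage, inferred from the peak calls and not measured on reads, was 3.64, 2.11, 1.23 and 0.978 in the same order. Expression was not measured in these files, so neither the cell type nor the loss of EHMT2 was checked here.

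As background, Hox genes lie in 4 clusters, are switched on in order along the head-to-tail axis, and are kept silent in mESCs mostly by Polycomb complexes, which place H3K27me3. Pax, Lhx and Nkx factors specify organs and neuron classes, and T-box factors pattern mesoderm, limbs and heart. EHMT2, with its partner EHMT1, deposits H3K9me2, another mark of silent chromatin.

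The sequences under member peaks are shown for sites of 3 kinds, sorted by which ab9110 lists also called them. Printed are 200 bases of mm10 (RefSeq GRCm38, plus strand) around the C29F4 summit of the 3 peaks of highest fold that were also called by ab9110 in DMSO but neither after dTAG nor in input, then the 1 C29F4 peak called in both ab9110 lists, and last the dTAG summit at Nkx2-1, called in no DMSO list. Capitals mark matches to an element like that of REST, the repressor of neuronal genes, searched as TCAGCACC followed after 2 bases by GGACAGCG, on both strands, with up to 3 mismatches over the 16 letters.
Nkx1-1, chr5:33438294-33438493, upstream of the gene: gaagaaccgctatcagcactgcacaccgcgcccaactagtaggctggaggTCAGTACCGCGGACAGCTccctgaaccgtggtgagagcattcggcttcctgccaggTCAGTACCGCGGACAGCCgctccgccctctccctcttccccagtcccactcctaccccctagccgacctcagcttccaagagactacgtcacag
Tbx15, chr3:99310917-99311116, intron: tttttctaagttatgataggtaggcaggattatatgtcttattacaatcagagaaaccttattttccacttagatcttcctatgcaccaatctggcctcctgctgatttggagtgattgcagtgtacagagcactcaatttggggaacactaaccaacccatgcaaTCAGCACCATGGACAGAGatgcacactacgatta
Pax5, chr4:44578664-44578863, intron: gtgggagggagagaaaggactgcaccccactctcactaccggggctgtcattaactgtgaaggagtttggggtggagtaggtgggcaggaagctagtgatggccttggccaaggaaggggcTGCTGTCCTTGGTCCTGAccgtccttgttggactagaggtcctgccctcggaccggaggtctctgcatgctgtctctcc
Pax2, chr19:44842573-44842772, downstream of the gene: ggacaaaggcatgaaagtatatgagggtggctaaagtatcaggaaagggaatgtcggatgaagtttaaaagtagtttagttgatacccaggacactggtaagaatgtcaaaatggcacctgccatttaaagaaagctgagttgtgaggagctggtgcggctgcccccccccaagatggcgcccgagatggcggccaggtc
Nkx2-1, chr12:56533156-56533355, exon: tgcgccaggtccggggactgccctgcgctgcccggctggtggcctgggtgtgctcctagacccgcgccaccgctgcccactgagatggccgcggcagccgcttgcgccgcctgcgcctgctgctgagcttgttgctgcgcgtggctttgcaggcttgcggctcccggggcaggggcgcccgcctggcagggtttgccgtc

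All 3 C29F4 sites called by ab9110 in DMSO and not after dTAG held the REST-like element, and the Pax2 and Nkx2-1 sites did not. The Nkx1-1 site held 2 copies, TCAGtACCgcGGACAGCt and TCAGtACCgcGGACAGCc, where lower case marks the 2 spacer bases and the mismatches. The Tbx15 element, TCAGCACCatGGACAGaG, had 1 mismatch and lay 76 bp from the C29F4 and 9 bp from the ab9110 DMSO summit. The Pax5 element, TCAGgACCaaGGACAGCa on the minus strand, had 2 mismatches and lay 31 bp from the C29F4 and 46 bp from the ab9110 DMSO summit. The spaced form of the element was chosen after these sequences were seen, so their matches are a description and support nothing.

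Over all lists, the 300 bases around the summit held such an element in 4.83% of all C29F4, 1.49% of all ab9110 DMSO and 0.741% of all ab9110 dTAG peaks. The C29F4 member peaks with one were the 3 printed above. In the ab9110 DMSO list 5 of 27 member peaks had one, of which 3 were at these same sites, and in the dTAG list 1 of 22. The dTAG match was at Lhx3, a regulator of pituitary and motor neuron development, where the element TCAGCACCgcGGACAGCG at chr2:26208274-26208291 had 0 mismatches. That Lhx3 site, in an exon 42 bp from an annotated start by its DMSO summit, was called with ab9110 in both treatments. The fifth DMSO peak with a match was at Pax8, a thyroid and kidney factor, with TCAGaACCtgGGAaAGCa and 3 mismatches. Searched alone, TCAGCACC was in 2 and GGACAGCG in 1 of the 6 C29F4 member peaks, beside 4.80% and 1.24% of all C29F4 peaks. The octamer ATGCAAAT, bound by POU factors such as OCT4, was in 0 of 6 C29F4, 0 of 27 ab9110 DMSO and 1 of 22 ab9110 dTAG member peaks, beside 3.22%, 2.92% and 2.34% of all peaks. A match of letters does not show that a factor was bound.

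To describe where peaks lay at these developmental regulators, genes with a peak were counted in each list. Peaks after dTAG or in input were not taken as sites of tagged EHMT2. Without untagged cells, DMSO peaks also called after dTAG cannot be assigned to EHMT2 either. With C29F4, 5 of 82 members had a peak (6.10%, 2.01 to 13.7%), beside 12.5% of all protein-coding genes. With ab9110 in DMSO it was 19 members (23.2%, 14.6 to 33.8%), beside 50.2% of all genes. After dTAG it was 23 members (28.0%, 18.7 to 39.1%), beside 45.0% of all genes. In the input list no member had a peak, which allows up to 4.40%, beside 4.60% of all genes. No ChIP list had a peak at 50 of the 82 members (61.0%, 49.6 to 71.6%), beside 36.7% of all genes. Members were thus below all genes in every ChIP list, with the C29F4 interval reaching past the value of all genes. The intervals are too narrow where genes share peaks. Of the 53 merged member windows, 5 had a C29F4, 19 an ab9110 DMSO and 18 a dTAG peak. These counts have no like share over all genes beside them.

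**Figure D1:**
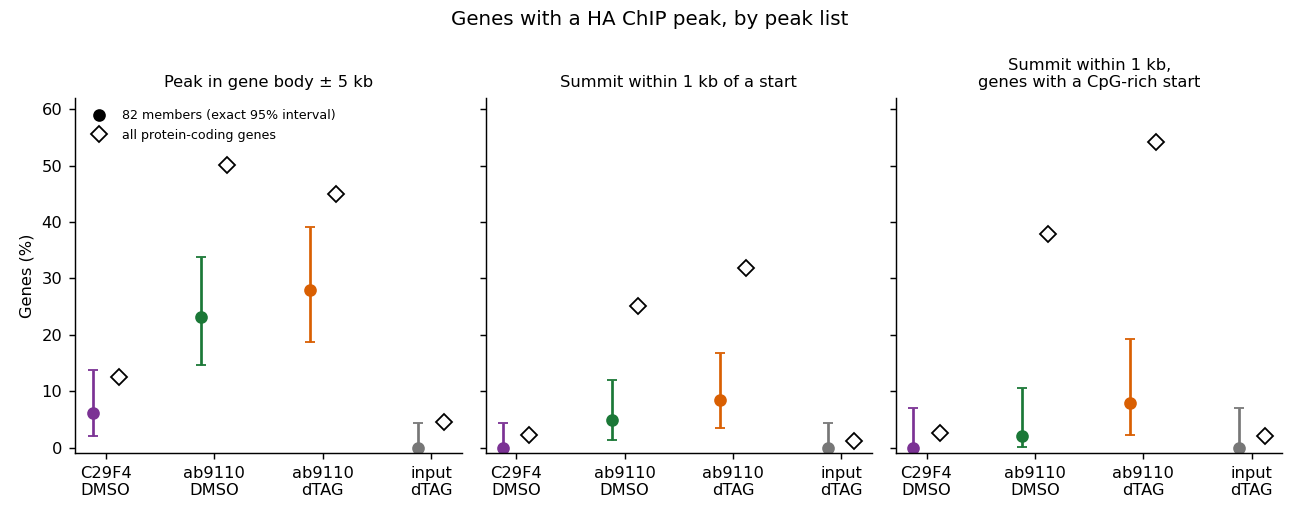
Percent of genes with a peak in the gene body extended by 5 kb (left), with a summit within 1 kb of an annotated start (middle) and the latter among genes with a CpG-rich start (right), by peak list. Filled points are the members with exact 95% intervals, 82 genes on the left and in the middle and 50 on the right, and open diamonds are all protein-coding genes. The intervals treat genes as independent, although neighbouring Hox genes share peaks on the left. The ab9110 intervals end below the diamonds in all panels, the C29F4 intervals reach them, and those of input do so except on the left (4.40% beside 4.60%).

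Member genes are short, with a median body of 7.14 kb beside 17.4 kb for all genes, and a short window has less room for a peak. Within classes of body length, chosen after the values were seen, 9 of 53 members under 10 kb had an ab9110 DMSO peak (17%), beside 30.2% of all such genes, and 14 of 53 had a dTAG peak (26.4%), beside 29.2%. Between 10 and 50 kb, 3 of 20 members had a DMSO peak (15%), beside 50.9%, and 6 of 20 a dTAG peak (30.0%), beside 47.9%. Over 50 kb, 7 of 9 members had a DMSO peak (77.8%), beside 80.2%, and 3 of 9 a dTAG peak (33.3%), beside 64.5%. For C29F4 the values were 2 of 53 (3.77%, beside 4.22%), 0 of 20 (beside 8.11%) and 3 of 9 (33.3%, beside 33.5%). In these counts the gap to all genes was widest between 10 and 50 kb in DMSO (20 members) and over 50 kb after dTAG (9 members). C29F4 in short and long members was close to other genes of that length. No interval was computed for these small classes, so the order of the gaps is a description only.

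Per length of window, the merged member windows held 6 C29F4 peaks (2.85 per Mb, 1.05 to 6.20), beside 3.45 per Mb over all gene windows. There were 27 ab9110 DMSO peaks (12.8 per Mb, 8.45 to 18.6), beside 16.7, and 22 dTAG peaks (10.4 per Mb, 6.54 to 15.8), beside 9.44. On this scale, all 3 intervals contained the value of all genes.

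Families differed in how the peaks were spread. Pax windows held 14 of the 27 DMSO peaks (20.2 per Mb, 11 to 33.9), and 7 of 9 Pax genes had one, beside 50.2% of all genes. Pax genes were of mixed length. By body length, the share of all genes was 30.2% under 10 kb, 50.9% between 10 and 50 kb and 80.2% over 50 kb. The Pax interval contained the 16.7 per Mb of all gene windows. Hox windows held 2 DMSO peaks (4.43 per Mb, 0.536 to 16) and Tbx windows also 2 (4.07 per Mb, 0.492 to 14.7). The Hox and Tbx intervals ended below 16.7 per Mb. Lhx windows held 5 DMSO peaks (19.2 per Mb, 6.24 to 44.8) and Nkx windows 4 (19.0 per Mb, 5.18 to 48.7), and both intervals contained it. After dTAG, the Lhx windows had 6 peaks (23.1 per Mb, 8.46 to 50.2) and the Pax windows 4 (5.77 per Mb, 1.57 to 14.8). The Hox windows had 6 dTAG peaks (13.3 per Mb, 4.87 to 28.9). Nkx windows had 3 (14.3 per Mb, 2.94 to 41.7) and Tbx windows 3 (6.10 per Mb, 1.26 to 17.8). The dTAG intervals of all families contained the 9.44 per Mb of all gene windows. A dTAG peak was at 6 of 8 Lhx, 2 of 9 Pax, 10 of 39 Hox, 2 of 14 Nkx and 3 of 12 Tbx genes, beside 45.0% of all genes.

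**Figure D2:**
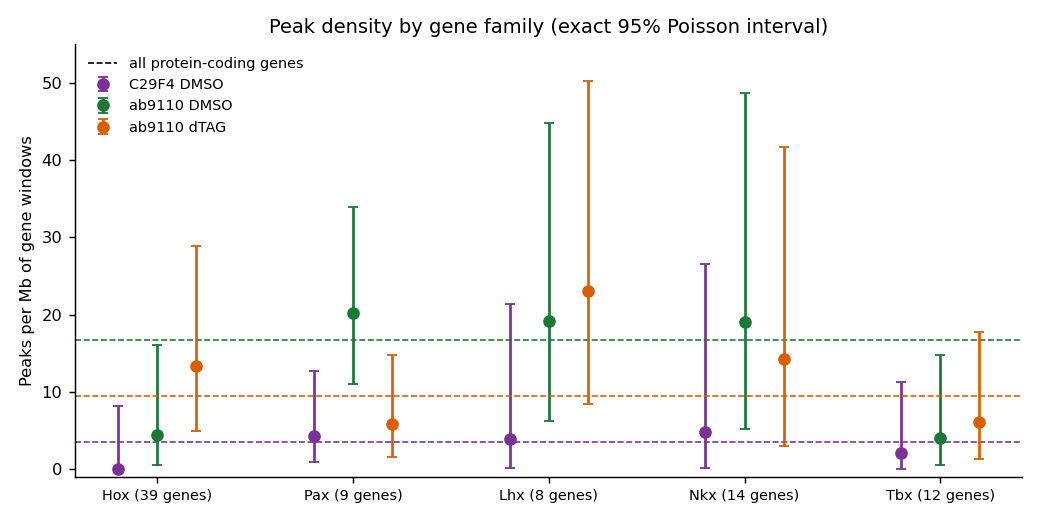
Peaks per Mb of merged gene windows for each family and ChIP list, with exact 95% Poisson intervals. Dashed lines give all protein-coding gene windows (16.7 for ab9110 DMSO, 9.44 for ab9110 dTAG, 3.45 for C29F4). The DMSO points of Hox and Tbx lie below the DMSO line with their intervals, and no Hox gene had a C29F4 peak.

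Relative to all genes, members were fewer still at start sites. A C29F4 summit lay within 1 kb of an annotated start in 0 of 82 members, which allows up to 4.40%, beside 2.34% of all genes. With ab9110 in DMSO it was 4 members (4.88%, 1.34 to 12%), beside 25.1%. After dTAG it was 7 members (8.54%, 3.50 to 16.8%), beside 31.9%. Input had 0 members, beside 1.25%. The DMSO summits were at Hoxc13, Lhx3, Pax8 and Tbx6. The dTAG summits included those at Hoxc6, Hoxd11, Lhx2, Lhx3, Lhx6 and Tbx6. Member starts were not poor in CpG. Of the 82, 50 had a CpG-rich first start (61.0%, defined as at least 50% GC and an observed to expected CpG ratio of at least 0.6 over 500 bp), beside 47.6% of all genes. Among genes with such starts, 1 of 50 members had a DMSO summit (2.00%, 0.0506 to 10.6%), beside 37.9% of all. A dTAG summit was at 4 of 50 (8%, 2.22 to 19.2%), beside 54.2%. Among genes with other starts, 3 of 32 members had a DMSO summit (9.38%), beside 13.5% of all. A dTAG summit was also at 3 of 32 (9.38%), beside 11.6%. The exact intervals of these last shares contained the values of all genes. The gap was thus clear at CpG-rich starts only, and 32 members are too few to exclude a smaller one elsewhere. Members had a mean of 2.77 annotated starts a gene and all genes 4.26, so members had fewer places to match.

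The 5 members with a C29F4 peak were Nkx1-1, Pax2, Tbx15, Pax5 and Lhx3. Nkx1-1, a homeobox gene of the nervous system, had the highest fold of any member in both DMSO lists. At its C29F4 peak, 75 fragments stood on a background of 12.5 (5.63-fold, with 1 added to both before division, as in all folds here), and at its ab9110 DMSO peak 42 fragments on 4.45 (7.89-fold). Whether that background came from an input library or from the ChIP library itself is not given in the sources used here. The summits lay 4417 and 4407 bp upstream of the Nkx1-1 start and 929 and 919 bp from the start of the lincRNA Gm43851. After dTAG no peak was called, and the nearest one was 69.9 kb from the gene. Scaled to dTAG coverage, 58.2% of that in DMSO, its 42 fragments come to 24.5, where 11 were needed for a call, which gives a chance of a call of 100.0%. This chance rests on 1 library a treatment and on coverage alone. Over all DMSO peaks it gave 39.7% called, where 18.9% overlapped a dTAG peak, so it was above the share found.

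Tbx15, a T-box gene of limb and muscle, had intronic peaks of 19 fragments with C29F4 (4.31-fold) and 11 with ab9110 in DMSO (3.86-fold). Their summits lay 14506 and 14591 bp from the nearest annotated Tbx15 start, and no peak was called after dTAG. At 11 fragments the chance of a call at dTAG coverage was 48.4%, so that its absence was not distinguishable from lower depth. Pax5, the B cell commitment factor and at 186 kb the longest member, had 2 C29F4, 5 ab9110 DMSO and 2 dTAG peaks, all in introns. Its C29F4 peak with the REST-like element had 58 fragments (3.47-fold) and overlapped a DMSO peak of 19 fragments (2.40-fold), with a chance of 12.7% at dTAG coverage. The second C29F4 peak (30 fragments, 3.32-fold) overlapped no ab9110 peak. The highest Pax5 peak of ab9110 DMSO (21 fragments, 4.07-fold) was not called after dTAG, at a chance of 77.9%, and another (24 fragments, 3.29-fold, chance 73.1%) was called with 13 fragments (4.79-fold).

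Pax2, a factor of kidney and midbrain, had the 1 member site called in all 3 ChIP lists. It lay downstream of the gene, 4.59 kb from its end by the C29F4 peak, and had 40 fragments with C29F4 (4.68-fold), 15 with ab9110 DMSO (3.21-fold) and 12 after dTAG (4.04-fold). A further dTAG peak lay in a Pax2 intron (8 fragments, 3.63-fold). At Lhx3, the C29F4 peak at chr2:26205230-26205508, of 32 fragments (3.45-fold), lay in an intron and overlapped no ab9110 peak. Its summit lay 1192 bp inside the nearest annotated Lhx3 start. The nearer ab9110 DMSO peak had its summit 843 bp inside that start (14 fragments, 2.69-fold). This start is not the one beside the exonic Lhx3 site. The exonic Lhx3 site had 25 fragments in DMSO (3.12-fold) and 10 after dTAG (3.27-fold). Of the 6 C29F4 member peaks, 3 overlapped an ab9110 DMSO and no dTAG peak, 1 overlapped both and 2 neither. Over all 11010 C29F4 peaks these classes held 46.1%, 20.8% and 32.2%. The 5 kb limit mattered for 2 of the 5 genes, since the Nkx1-1 and Pax2 peaks lay 4.12 and 4.59 kb outside the gene bodies. The next member, Nkx6-2, had its nearest C29F4 peak at 8.32 kb.

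**Figure D3:**
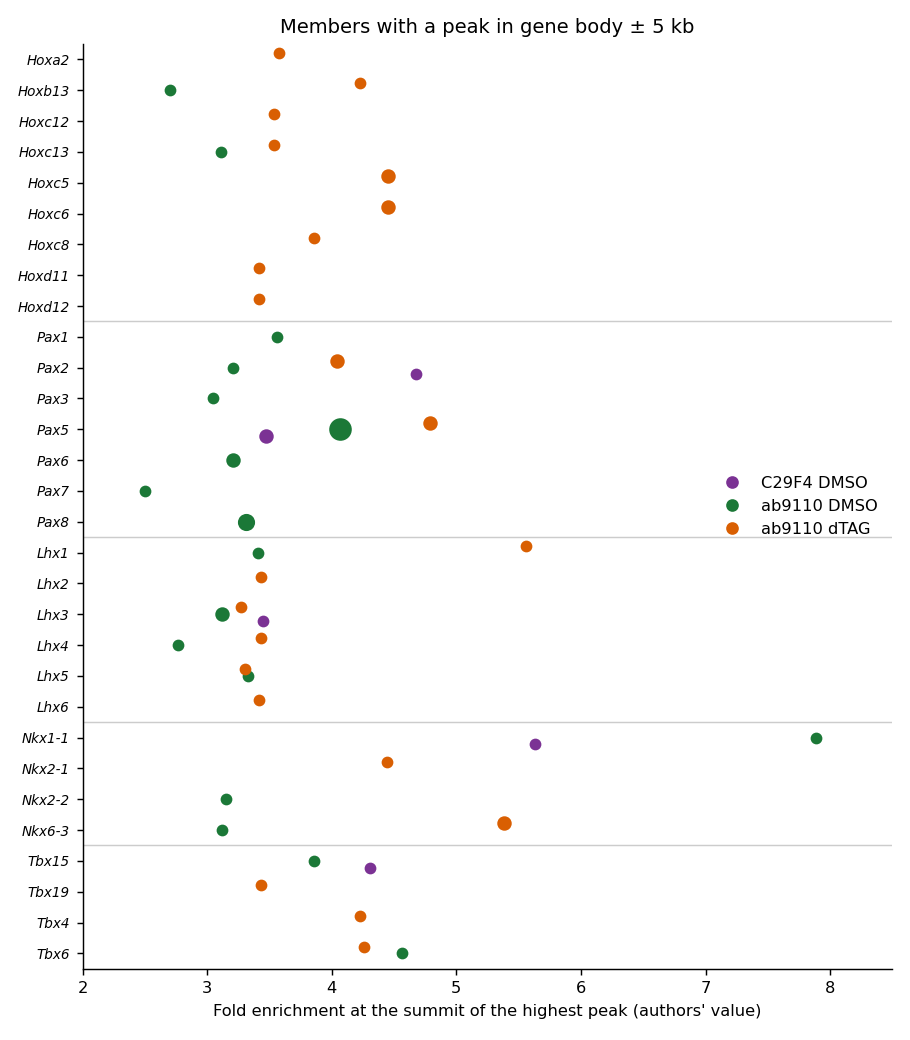
Fold enrichment at the highest peak of 30 members with a peak in a ChIP list, coloured by list, with larger points for more peaks (1 to 5). Nkx1-1 lies apart at 5.63 and 7.89 in the DMSO lists with no dTAG point, Hox genes have dTAG points at 3.42 to 4.45 and few DMSO points, and neighbouring Hox genes that share a peak share a value.

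With ab9110, 9 members had a peak in DMSO and not after dTAG (11%, 5.14 to 19.8%), beside 17.5% of all genes. A further 10 had one in both (12.2%, 6.01 to 21.3%), beside 32.7%, and 13 after dTAG and not in DMSO (15.9%, 8.72 to 25.6%), beside 12.3%. The first group held no Hox or Lhx gene, but only 2 Hox and 4 Lhx genes had a DMSO peak at all. It included Nkx1-1, Tbx15, Pax1, Pax3, Pax6, Pax7, Pax8 and Nkx2-2. Pax1, a factor of the vertebral column, had 12 fragments at its DMSO peak (3.56-fold). Pax8 had 3 DMSO peaks of 10 to 12 fragments (3.09- to 3.31-fold) and Pax6, the eye regulator, 2 intronic ones of 15 and 13 (3.21- and 3.00-fold). The peaks of these named genes other than Nkx1-1 had chances of 9.71% to 48.4% at dTAG coverage, and their absence after dTAG was not distinguishable from lower depth. Those at Pax3, Pax7 and Nkx2-2 had 11 to 18 fragments (2.50- to 3.15-fold) and lay in introns.

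Among members called in both treatments, Tbx6, which drives paraxial mesoderm, had the highest DMSO fold, with 37 fragments (4.56-fold) at chr7:126780548-126781131, 715 bp upstream of the start, and 25 fragments at 698 bp after dTAG (4.26-fold). The Lhx1 peak at chr11:84513492-84513934 had 22 fragments in DMSO (3.41-fold) and 21 after dTAG (5.56-fold), the highest member fold in that list. Its summits lay 116 and 112 bp from the start of Aatf, the neighbouring gene. The DMSO summit was 8429 bp from the nearest annotated start of Lhx1. Nkx6-3, a stomach factor, had a peak of 25 fragments in DMSO (3.12-fold) and 20 after dTAG (5.38-fold) beyond its end, 10055 bp from its start by the dTAG summit, and a further dTAG peak in an exon (12 fragments, 3.41-fold). Lhx5, a forebrain factor, had a DMSO peak upstream (15 fragments, 3.33-fold) and a separate dTAG peak in an exon (9 fragments, 3.30-fold). Hoxb13 had 16 fragments in DMSO (2.7-fold) and 17 after dTAG (4.23-fold) at a shared site, chr11:96190333-96190714 in DMSO, upstream of the gene. Lhx4, a pituitary factor, had its DMSO peak (16 fragments, 2.77-fold) and its dTAG peak (9 fragments, 3.43-fold) at different intronic sites. The 2 lists differ in coverage, and their median fold over all peaks was 3.28 in DMSO and 3.78 after dTAG. A higher fold after dTAG is therefore not read as a gain of HA signal.

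Of the 27 member peaks of ab9110 DMSO, 7 overlapped a dTAG peak (25.9%, 11.1 to 46.3%), beside 18.9% of all DMSO peaks. At dTAG coverage, 10.0 of the 27 would be called on average (37.1%, beside 39.7% of all DMSO peaks). The chance of a call exceeded 50% for 8 member peaks, and 5 of these were called in dTAG, beside 38.3% of the 12746 such peaks in all. The 3 that were not called were at Nkx1-1, Pax5 and Hoxc13.

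**Figure D4:**
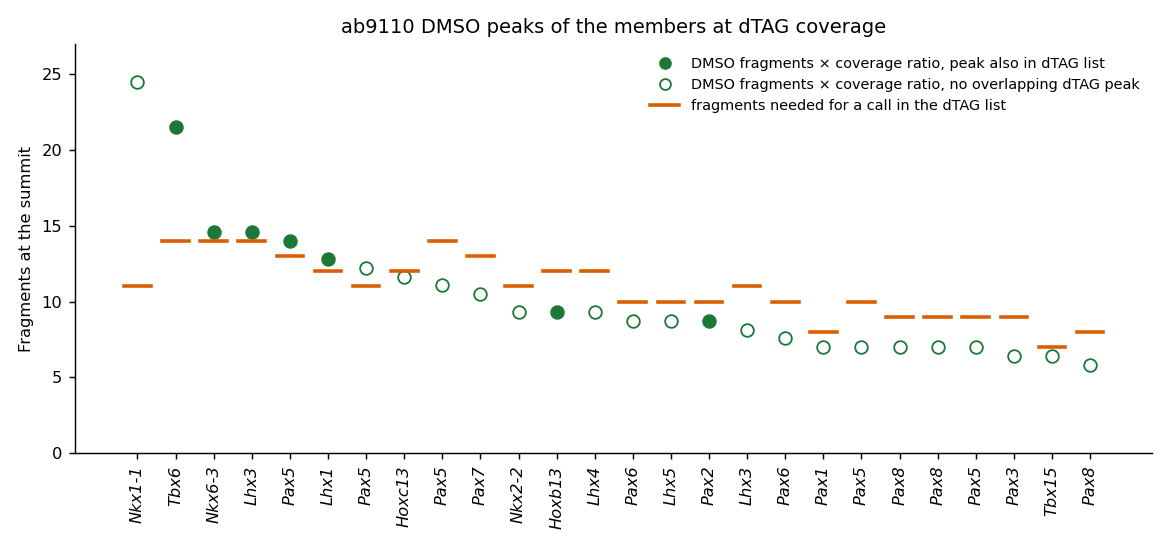
Fragments at 26 ab9110 DMSO member summits, multiplied by the ratio of dTAG to DMSO coverage (points), and fragments needed for a call in the dTAG list (orange lines). Filled points overlap a dTAG peak. The Nkx1-1 point, at 24.5 fragments with 11 needed, is the furthest above its line of all open points.

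Of the 13 members with a dTAG and no DMSO peak, 8 were Hox genes, which share peaks. At Hoxc6, 12 fragments lay in an exon at chr15:103011157-103011540 (4.45-fold) and 10 fragments at chr15:102997903-102998284 (3.86-fold), 191 bp upstream of a start. The first peak was shared with the window of Hoxc5, and the second with those of Hoxc5 and Hoxc8. Nkx2-1, a factor of lung, thyroid and ventral forebrain, had 11 fragments in an exon, 1851 bp from its nearest annotated start (4.44-fold). Tbx4, a hindlimb factor, had 12 fragments in an intron (4.23-fold). Weaker peaks of 9 or 10 fragments (3.42- to 3.43-fold) lay at Hoxd11 (with Hoxd12), Lhx2, Lhx6 and Tbx19. The Hoxc12 peak (13 fragments, 3.54-fold) also fell in the window of Hoxc13, which had its own DMSO peak. Counted by peaks, 15 of the 22 dTAG member peaks overlapped no DMSO peak, since 7 did (31.8%, 13.9 to 54.9%, beside 46.8% of all dTAG peaks). The dTAG member peaks had a median GC content of 57.5% and CpG ratio of 0.518, the DMSO ones 51.6% and 0.265. Over all peaks the values were 53.7% and 0.479 for dTAG and 48.5% and 0.212 for DMSO, so this order was that of the lists as a whole.

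In the Hox clusters, C29F4 called no peak in any of the 39 genes or their flanks (0 per Mb, at most 8.17), beside 3.45 per Mb. The nearest C29F4 peak lay 76.7 to 501 kb from a Hox gene, with a median of 312 kb, beside 110 kb for all genes. Genes of the same cluster share a gap, so their distances are not independent. The peak-free stretch that held the cluster was 361 kb for Hoxa, 1164 kb for Hoxb, 1595 kb for Hoxc and 649 kb for Hoxd. The genome held 4.04 C29F4 peaks per Mb. These lengths have no like value from other loci beside them and are a description only. The ab9110 DMSO list had 1 Hoxc peak, 73 bp upstream of Hoxc13, a gene of hair and nails (20 fragments, 3.11-fold), and 1 Hoxb peak, upstream of Hoxb13. A further 2 DMSO peaks and 1 input peak fell in the long gap between Hoxb13 and Hoxb9, beyond the windows. The Hoxa and Hoxd clusters had no DMSO peak within stretches of 196 and 180 kb. After dTAG, each cluster had a peak in its windows, 1 in Hoxa, 1 in Hoxb, 3 in Hoxc and 1 in Hoxd, with 10 to 17 fragments each. Because windows overlap, these 6 peaks gave 10 of the 39 Hox genes a peak, beside 45.0% of all genes.

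**Figure D5:**
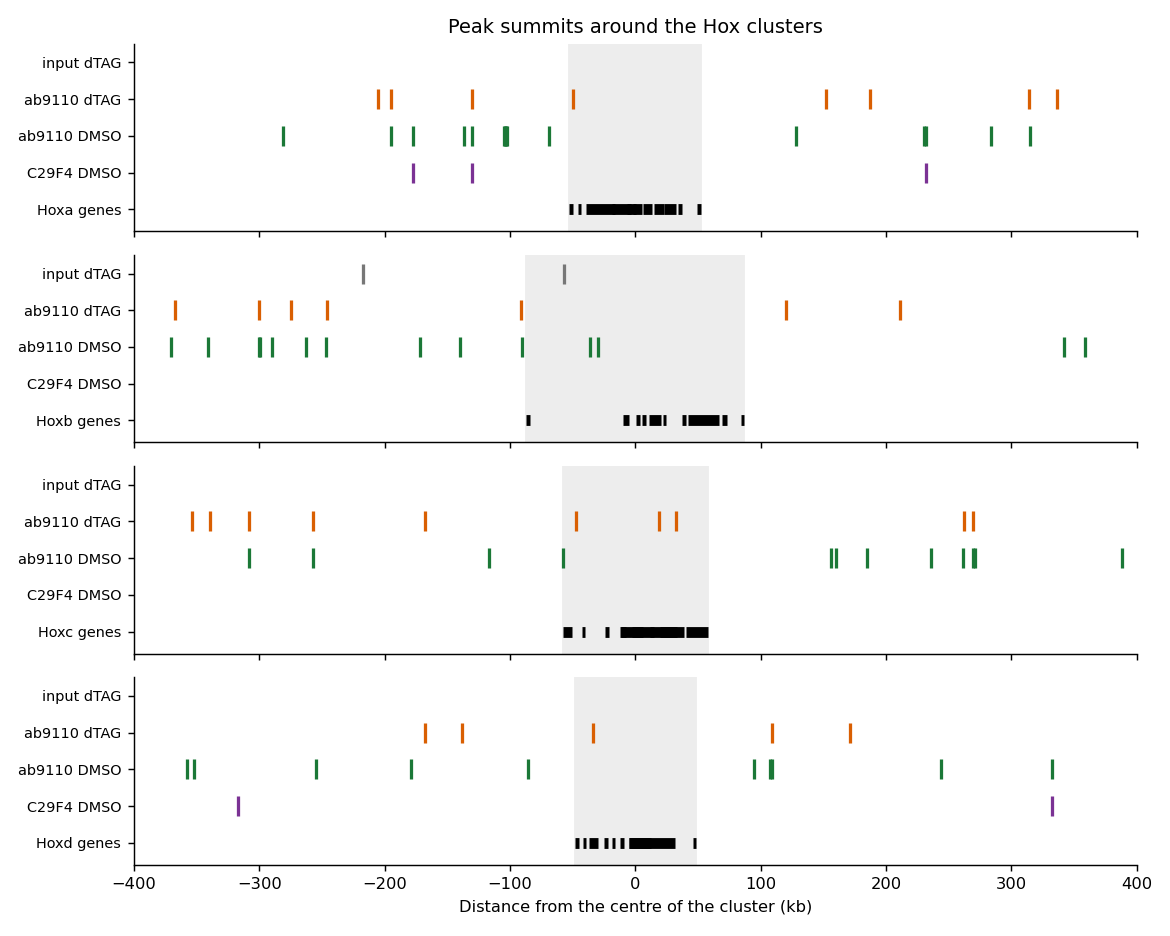
Peak summits within 400 kb of the centre of each Hox cluster, by list, with gene bodies in black and the span of the cluster shaded. C29F4 marks are absent from all 4 spans, and dTAG marks lie within or just beside each.

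Member peaks were ordinary for their lists in strength. The median fold was 3.89 for the 6 C29F4 peaks, 3.15 for the 27 ab9110 DMSO peaks and 3.74 for the 22 dTAG peaks, beside 3.67, 3.28 and 3.78 over all peaks. Summits of 16 of the 27 DMSO and 15 of the 22 dTAG peaks lay in a member gene, and the others in its flanks. Soft-masked repeats made up a median of 4.77% of the bases of C29F4 member peaks, 8.21% of ab9110 DMSO and 6.51% of dTAG member peaks, beside 39.6%, 26.6% and 12.8% over all peaks. No member peak was over 50% soft-masked.

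Related genes of the same pathways were counted by the same rule. Of 57 genes, 3 had a C29F4 peak (5.26%), 21 an ab9110 DMSO peak (36.8%), 18 a dTAG peak (31.6%) and 1 an input peak (1.75%). The shares over all protein-coding genes were 12.5%, 50.2%, 45.0% and 4.60% in the same order, and they stand behind each count that follows. Among 14 Hox cofactors and neighbours such as Pbx, Meis and Cdx genes, 10 had a DMSO and 8 a dTAG peak. Their median body was 28.6 kb, beside 30.3 kb for the LIM list that follows. Whether length bears on these counts was not tested. Among 10 LIM partners and other LIM homeobox genes, 2 had a DMSO and 3 a dTAG peak, and Ldb2, which bridges LIM factors, had 2 C29F4 peaks (up to 7.72-fold), 3 DMSO peaks (up to 4.69-fold) and none after dTAG. Of 4 T-box genes without a number, 2 had a DMSO and 1 a dTAG peak, the latter being Mga (9.57-fold). Among 29 other homeobox genes of patterning such as Dlx, Irx, Msx and Otx genes, none had a C29F4 peak, 7 had a DMSO peak (24.1%) and 6 a dTAG peak (20.7%), beside 23.2% and 28.0% of the members. Otx2 had 3 DMSO peaks (up to 3.59-fold) and no dTAG peak.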

How the data were processed

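HA ChIP-seq of EHMT2-dTAG mESCs was analysed from 4 deposited peak lists on mm10. The authors trimmed reads, aligned them with STAR 2.7.10, placing a read with several best locations at 1 of them, removed duplicates with Picard 2.26.0 and blacklisted regions, and called peaks with MACS2 2.2.6, keeping q-values under 0.05. Versions are from the submitters' processing notes. The lists were called per sample, except that C29F4 replicates were merged. The deposited fold is the authors' ratio of pileup to background at the summit, with 1 added to both (whether a control library gave the background is not given in the sources used here), and the deposited −log10 p and q-values belong to that summit. The deposited score repeats these and was not used.

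Peaks were matched to GENCODE M21 genes by at least 1 bp (Python 3.11.15, scipy 1.17.1, pysam 0.24.0). Fragments and background at a summit were solved from fold and Poisson p-value, which worked for 100% of ab9110 ChIP summits. The lowest background so solved in a list was taken as its mean fragment coverage. The chance of a call at dTAG coverage is that of binomially thinned fragments reaching a −log10 p of 4.28, the lowest in the dTAG list, on the scaled background. Overlaps and thinning were tested on simulated data. With 1 list a condition no test between conditions was made. Members and lists were chosen with earlier results of these data known. Genes were named by rule: all with a C29F4 peak, the 10 of highest fold in each ab9110 ChIP list, the 5 highest with a dTAG and no DMSO peak, any with an input peak, and in each family the gene with most peaks in the DMSO lists. The other genes were named after their values were seen. Of the dTAG sites due to be printed, Hoxc6 was left out because it lies in a UTR. Of the other libraries (each C29F4 replicate alone, the C29F4 inputs, the DMSO input of ab9110) no list was analysed here. A few genes within these rules are counted but not reported here by name.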

Additional observations from a re-analysis of the deposited data

How the results depend on the processing

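Of 144 values recomputed under other settings, 95 stayed within 1.5 times the count or within the interval of the density, and 49 moved. With q-values under 0.01, ab9110 DMSO kept 17 peaks (8.07 per Mb), and dTAG 12 peaks (5.70 per Mb) at 13 members, with 6 members in both and 7 in dTAG alone. With q under 0.001, DMSO had 8 peaks (3.8 per Mb) at 7 members (8.54%, beside 27.4% of all genes) and dTAG 8 peaks (3.8 per Mb) at 9 members (11%, beside 25%), with 3, 4 and 5 members in DMSO alone, both and dTAG alone, and 1 member with a dTAG summit near a start. Of the 6 C29F4 peaks, 1 was then in DMSO alone, 0 in both and 5 in neither. Without extension, 3 members had a C29F4 peak (3.66%, beside 9.60% of all genes) and 10 a DMSO peak (12.2%, beside 39.4%, 17 peaks). A dTAG peak was then at 15 members (18.3%, beside 38.4%), and 3 had both. With 2 kb, 3 had a C29F4 and 11 a DMSO peak, and 4 both. With 20 kb, 9 had a C29F4 (10 peaks), 35 a dTAG (34 peaks) and 2 an input peak (2 peaks), DMSO had 42 peaks, and 18 members had both. Limiting DMSO to the size of the dTAG list left 9 peaks at 8 members, 2 without and 6 with a dTAG peak. Thinning DMSO to dTAG coverage left 10.0 peaks at 8.89 members on average, 3.35 without and 5.54 with a dTAG peak, and put 1.61 C29F4 peaks in DMSO alone, 0.350 in both, 0.650 in dTAG alone and 3.39 in neither. Within 2 kb of a start, 1 member had a C29F4 summit. Member counts in this paragraph without a share of all genes beside them are descriptions only. No paired analysis was possible because the C29F4 replicates share 1 merged list and the other groups have 1 sample each, so leaving out a replicate could not be done either.

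Counts of a few peaks limit every statement here, most of all for C29F4 (6 peaks), and member windows overlap. Most ab9110 member peaks held 8 to 25 fragments, so that their absence from a list can reflect depth.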
